A study of Mus musculus with 12 samples.

Results

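The late-falling transcripts are 109 of 12456 genes measured in mouse embryonic fibroblasts, chosen by their wild-type signals. These were lower 4 h after interleukin-1 beta (IL-1b), with a log2 change above -0.5 at 1 h. Each gene was represented by its Affymetrix probe set with the highest mean over the 12 arrays, on the scale log2(signal + 8). A gene was kept if both unstimulated wild-type signals were at least 50, if the wild-type change at 4 h was -0.9 or less, and if the wild-type change at 1 h was above -0.5. Of 8550 genes with enough signal, 179 met the 4 h limit; 64 of these were already at -0.5 or less at 1 h. Of the remaining 115, 6 were left out by name (zinc-finger genes named Zfp, Hox genes, Cxcr4 and Id4). All 109 members passed the filter on low signals, which the minimum of 50 ensures. Because every wild-type array entered this choice, all wild-type values below are a description and carry no test; the kinase-dead arrays entered only through the choice of probe set and are the ones tested.

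The 12 arrays held 6 groups of 2 samples: fibroblasts from embryos of IRAK4 kinase dead mice, unstimulated, at 1 h and at 4 h of IL-1b at 1 ng/ml, and fibroblasts from wild-type (WT) embryos under the same conditions. Both unstimulated groups were grown for 4 h, so each 1 h comparison also differs in culture time, and no unstimulated 1 h group was used here. The title of wild-type unstimulated replicate 1 gives no genotype, and its place rests on the series design, with 6 arrays of each genotype. The samples are called biological replicates there, with no word on separate embryos, cultures or passage. The p-values therefore measure the spread between these samples, which may be technical. Only 2 arrays a group limit the precision. The correlation between replicate arrays on the log2 scale was 0.967 to 0.975, and the fibroblast collagen gene Col1a1 gave signals of 4601 to 6237. In whole cultures, fewer cells of a type and less RNA per cell cannot be told apart.

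IL-1b binds its receptor on fibroblasts and brings the adaptor MyD88 and the kinases IRAK4 and IRAK1 together, which leads to activation of NF-kB and MAP kinases and to a wave of induced cytokine, chemokine and matrix-degrading enzyme transcripts. In the kinase-dead allele the IRAK4 protein lacks catalytic activity. A transcript can decline while that wave builds, through less synthesis or faster decay, and an array measures only the resulting level. A delayed decline leaves time for new proteins to be made after the stimulus, which distinguishes it by timing from an immediate one.

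In wild-type cells the members covered a wide range of levels. Their mean unstimulated signal ran from 54.4 (Rusc2) to 2037 (Jade1). The median over the members was 66.0 at 4 h and 156 in unstimulated cells. The 4 h log2 change had a median of -1.08 and ran from -1.83 (Trim62) to -0.90 (Nudt7), against a median of -0.12 over all genes. A change of -1.2 or less was found in 31 members and of -1.5 or less in 9. Both 4 h arrays lay below both unstimulated arrays for all 109 members, against 35% of all genes, and below both 1 h arrays for 107, against 33.1%; the rule used these arrays, and nothing is read from the counts. Over all 12456 genes, 440 (3.53%) had a 4 h change of -0.9 or less, a count given as background to the choice.

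At 1 h the members went both ways in wild-type cells, within the limit of -0.5 that the rule set on the low side. The median 1 h change was -0.01, 61 of 109 lay within 0.25 of 0, and the range was -0.48 (Hey2) to 1.46 (Hpgd). In 11 members the 1 h level stood more than 0.5 above the unstimulated one, so that these had a high 1 h level before the low 4 h level; 10 of the 11 were also above 0 at 1 h in kinase-dead cells, 6 of them by more than 0.25. Of all 680 genes with such a wild-type 1 h level, 73.5% were above 0 and 50.6% above 0.25 in kinase-dead cells. The prostaglandin-inactivating enzyme Hpgd, the transcription factor Tox and the iron exporter Slc40a1 were among the 11. Hpgd was the 1 of the 11 that was not above 0 at 1 h in kinase-dead cells.

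**Figure D1:**
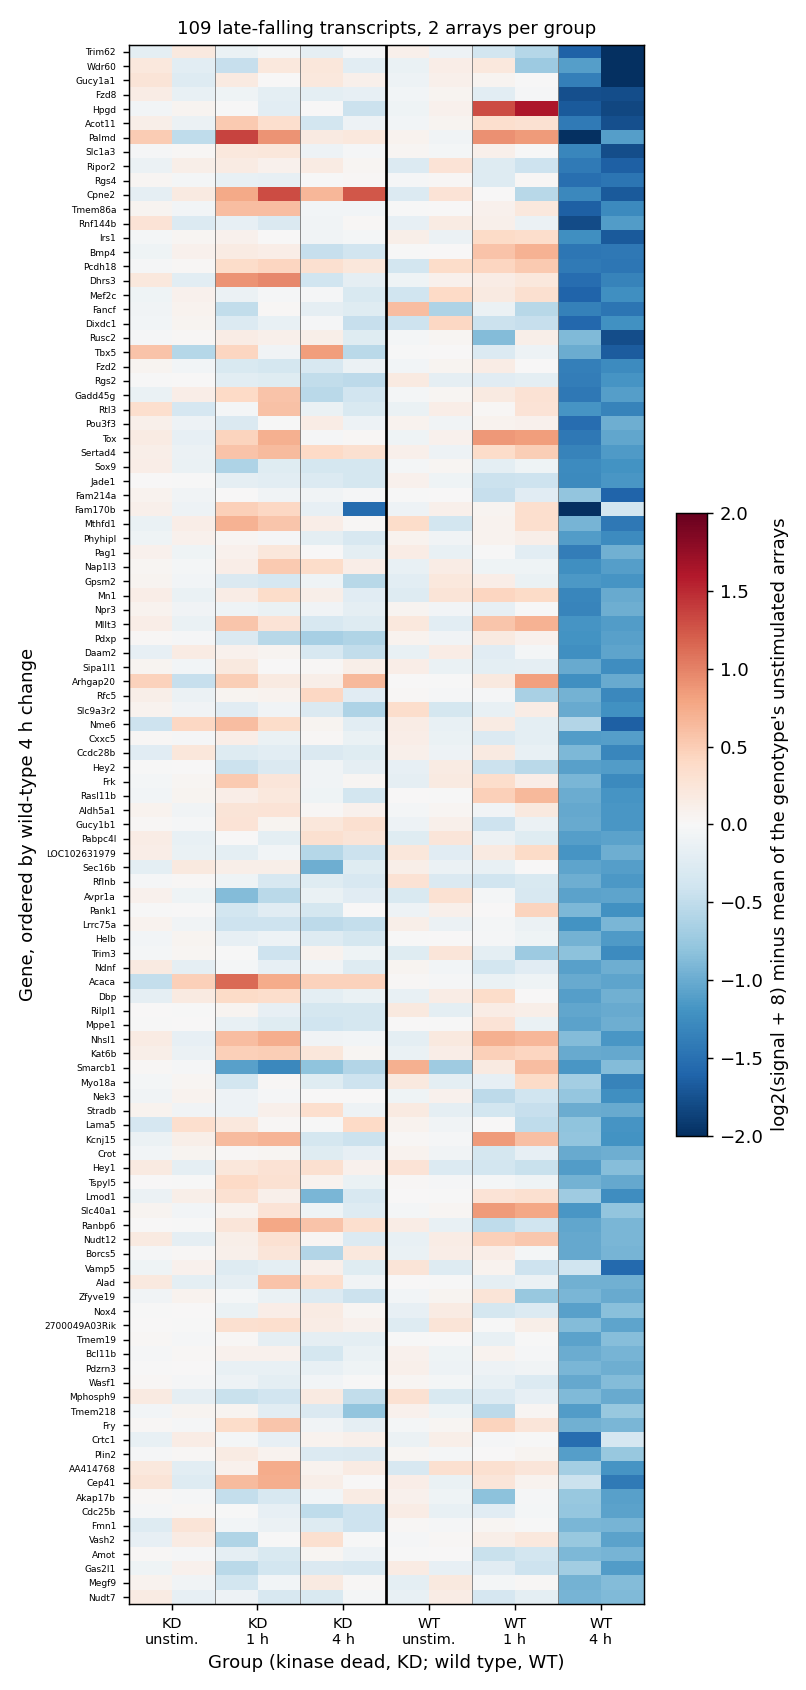
Signals of the 109 late-falling transcripts on each of the 12 arrays, as log2(signal + 8) minus the mean of the unstimulated arrays of the same genotype, 1 row per member ordered by the wild-type 4 h change, with colours that end at -2 and 2. Kinase-dead arrays stand left of wild-type arrays; the kinase-dead 4 h columns are mixed around 0 with a member median of -0.12, and the wild-type 4 h columns are low by construction of the set.

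The limits cut through a continuous range. Just inside the 4 h limit were Nudt7, Megf9 and Gas2l1 at -0.901, -0.906 and -0.906, and just outside were 1700008J07Rik, the vitamin D receptor Vdr and the mitochondrial carrier Slc25a13 at -0.8998, -0.899 and -0.895. Hey2, Trim62 and Nek3 were just inside the 1 h limit, at -0.48, -0.47 and -0.46, and U2af1l4 was just outside it at -0.50. Rgcc, a regulator of the cell cycle that was proposed as the marker of this pattern, is not a member: its wild-type 4 h change was -2.19, but its 1 h change of -0.54 missed the limit. Rgcc gave 74.6 and 65.2 in unstimulated kinase-dead cells, 95.0 and 96.1 at 1 h, and 44.0 and 47.7 at 4 h, against 195 and 218, 195 and 99.2, and 40.6 and 37.3 in wild-type cells. The wild-type 1 h arrays of Rgcc disagreed, with replicate 1 at the unstimulated level and replicate 2 well below it. In kinase-dead cells the 4 h change of Rgcc from unstimulated was -0.53 ± 0.24 (SE; limma adjusted p = 0.336), and relative to 1 h it fell by 0.94 (limma adjusted p = 0.0333).

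The main test asked whether the same transcripts were lower 4 h after IL-1b in cells without IRAK4 kinase activity. No member was called in either direction, against 0.618% of all genes (0 lower and 0 higher of 109, limma with Benjamini-Hochberg adjustment over all genes at a threshold of 0.05), where 0.177% of all genes were called lower and 0.442% higher. The lowest adjusted p was 0.12, for Bmp4. The member median was -0.12 (-0.07 without kinase-dead 4 h replicate 2, and -0.05 with the mean of each gene's probe sets), against -0.01 over all genes, and the range was -0.85 (Fam170b) to 0.95 (Cpne2). No member reached -0.9, which only 0.578% of all genes did, so nothing is read from that absence. The 10th and 90th percentiles were -0.45 and 0.19 for the members, against -0.35 and 0.40 over all genes.

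The small changes leaned downward. A change below 0 was seen in 74 of 109 members (67.9%), against 51.1% of all genes. The unadjusted p was under 0.05 with a lower level in 20 members (18.3%, against 7.04% of all genes) and with a higher level in 3 (2.75%, against 6.61%). Both 4 h arrays were below both unstimulated arrays in 43 members (39.4%, against 24.7% of all genes), and above them in 9 (8.26%, against 22.5%). A change of -0.5 or less was found in 8 members (7.34%, against 4.11%). These counts describe the members beside all genes, which include ones dimmer than the rule admits, and are not a test of the set. The absence of a call does not show that the levels were the same. Calls appeared when wild-type unstimulated replicate 1 or 2 was left out of the fit, 3 lower in each case (Jade1, Rilpl1 and Smarcb1), and when only the kinase-dead arrays were fitted, 5 lower and 1 higher. Calls over all genes rose in the same fits, to 0.939% and 0.955% lower without those replicates and to 1.22% lower and 1.46% higher with the kinase-dead arrays alone. The ratio of 3' to 5' actin probe signals is a measure of RNA integrity. It was 2.35 to 2.55 on the stimulated kinase-dead arrays, against 2.83 to 2.86 on the unstimulated ones. On wild-type arrays it was 2.14 to 2.69 unstimulated, 2.43 to 2.44 at 1 h and 2.15 to 2.58 at 4 h. Its part in the changes of either genotype was not tested.

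**Figure D2:**
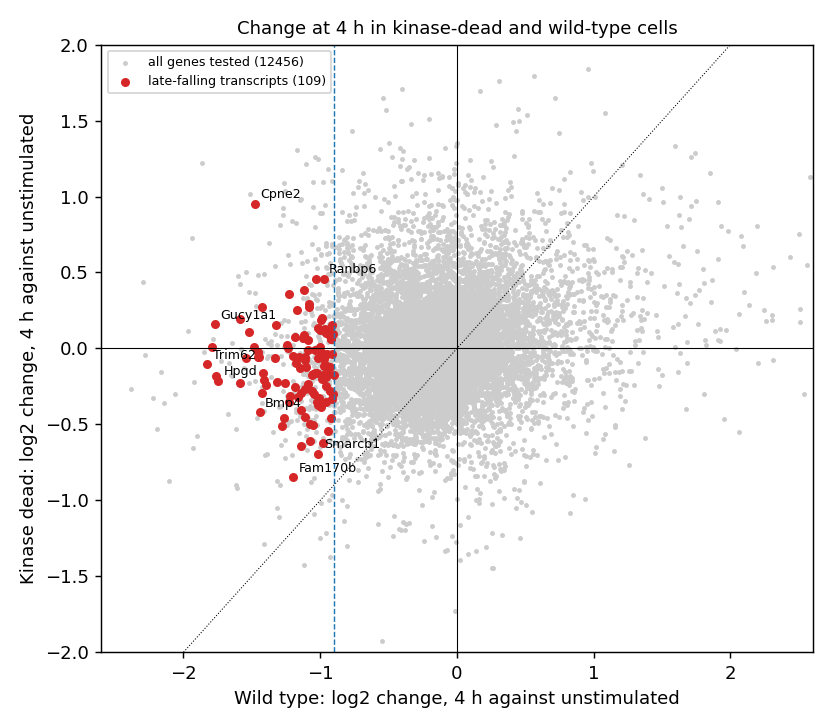
Log2 change at 4 h against unstimulated in kinase-dead cells (vertical) and wild-type cells (horizontal) for all 12456 genes (grey) and the 109 late-falling transcripts (red). The members end at -0.90 on the horizontal axis because of the rule, and on the vertical axis they lie between -0.85 and 0.95.

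The median unstimulated level of the members was 171 in kinase-dead cells and 156 in wild-type cells, and 96 of 109 members gave at least 50 on both unstimulated kinase-dead arrays. The log2 difference of kinase-dead minus wild-type unstimulated cells had a median of 0.09 and ran from -2.45 (Tbx5) to 1.54 (Bmp4). At 4 h the median over members was 155 in kinase-dead cells and 66.0 in wild-type cells, and 103 of 109 were higher in kinase-dead cells. Both comparisons hold the arrays that chose the members and are a description. The summed signal of macrophage markers (13 of 14 tested) was 968 to 1133 on kinase-dead arrays and 367 to 411 on wild-type arrays, and its part in differences between the genotypes was not tested.

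The members were sorted by textbook role after their values had been seen. Among the 12 ligands, receptors and cell-surface proteins, the kinase-dead 4 h change had a median of -0.01 with 6 of 12 below 0, and the wild-type change a median of -1.12. Both subunits of soluble guanylate cyclase, the receptor for nitric oxide that makes cyclic GMP, were members. The alpha-1 subunit gene Gucy1a1 gave 305 and 210 in unstimulated kinase-dead cells, 288 and 256 at 1 h, and 295 and 274 at 4 h, against 139 and 160, 156 and 148, and 53.1 and 26.7 in wild-type cells at the same times. The beta-1 subunit gene Gucy1b1 gave 282 and 272, 335 and 288, and 327 and 347 in kinase-dead cells, against 125 and 146, 99.9 and 124, and 63.2 and 56.3 in wild-type cells. In kinase-dead cells the 4 h and unstimulated arrays of Gucy1a1 overlapped and the 4 h arrays of Gucy1b1 lay above the unstimulated ones, while in wild-type cells the 4 h arrays of both genes lay below the unstimulated ones. The kinase-dead 4 h change was 0.16 ± 0.22 for Gucy1a1 (SE; limma adjusted p = 0.818) and 0.27 ± 0.15 for Gucy1b1 (limma adjusted p = 0.458).

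Gucy1a1 and Gucy1b1 are neighbours on mouse chromosome 3 with 0 protein-coding genes between them, and their upstream sequences are shown because the subunits were low together at 4 h in wild-type cells. Each is the 250 bases before the annotated start site, from RefSeq on GRCm38.p6, read 5' to 3' on the gene's strand, with matches to the searched motifs in capitals. Gucy1a1 lies at chr3:82145651-82145900 and Gucy1b1 at chr3:82074712-82074961, both on the minus strand.
Gucy1a1: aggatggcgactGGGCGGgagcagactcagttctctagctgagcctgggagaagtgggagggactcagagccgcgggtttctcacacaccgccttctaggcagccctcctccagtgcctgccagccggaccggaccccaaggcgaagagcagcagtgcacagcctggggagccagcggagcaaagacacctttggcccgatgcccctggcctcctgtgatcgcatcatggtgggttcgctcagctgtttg
Gucy1b1: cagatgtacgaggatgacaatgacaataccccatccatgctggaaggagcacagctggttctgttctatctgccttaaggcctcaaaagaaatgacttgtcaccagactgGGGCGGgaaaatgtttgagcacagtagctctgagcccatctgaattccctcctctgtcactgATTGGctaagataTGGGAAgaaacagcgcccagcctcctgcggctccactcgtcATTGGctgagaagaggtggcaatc
The Gucy1a1 window held a GC box (GGGCGG) 238 bases before the start site. The Gucy1b1 window held a GC box at 140 bases, the inverted CCAAT box (ATTGG) at 78 and 24 bases, and the letters TGGGAA, which the Notch-pathway factor RBPJ recognises, at 65 bases. A match is a description of the letters and not of binding.

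The Wnt receptors Fzd8 and Fzd2 were low at 4 h in wild-type cells. Fzd8 gave 108 and 112 at 4 h and 140 and 113 unstimulated in kinase-dead cells, against 41.1 and 40.6 at 4 h and 151 and 164 unstimulated in wild-type cells. Fzd2 gave 519 and 594 at 4 h and 673 and 624 unstimulated in kinase-dead cells, against 225 and 243 at 4 h and 574 and 614 unstimulated in wild-type cells. The 4 h arrays lay below the unstimulated ones in both genotypes for both receptors, by margins that were narrow in kinase-dead cells: the change was -0.18 ± 0.17 for Fzd8 and -0.22 ± 0.11 for Fzd2 (SE; limma adjusted p = 0.695 and 0.403).

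Bmp4, a secreted ligand of the TGF-beta superfamily, came nearest to a call at 4 h. It gave 584 and 662 in unstimulated kinase-dead cells, 700 and 685 at 1 h and 449 and 476 at 4 h, against 207 and 209, 313 and 344, and 71.2 and 71.8 in wild-type cells. In both genotypes the 4 h arrays were the lowest and the 1 h arrays the highest. The kinase-dead change from unstimulated was -0.42 ± 0.12 (SE; limma adjusted p = 0.12), and from 1 h to 4 h Bmp4 fell by 0.57 (limma adjusted p = 0.011); the wild-type 4 h change was -1.44. The natriuretic peptide clearance receptor Npr3 gave 1422 and 1319 at 4 h and 1565 and 1428 unstimulated in kinase-dead cells, against 405 and 521 at 4 h and 1072 and 987 unstimulated in wild-type cells. The vasopressin receptor Avpr1a was low in kinase-dead cells throughout (26.9 to 59.4), against 69.7 to 194 in wild-type cells. Pcdh18, a protocadherin, had a kinase-dead 4 h change of 0.27 (limma adjusted p = 0.502), and its chromosome 3 neighbour Pabpc4l, with 0 protein-coding genes between them, one of 0.29 (limma adjusted p = 0.496). Both were above the unstimulated arrays in kinase-dead cells at 4 h and below them in wild-type cells.

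Among 18 intracellular signalling members the kinase-dead median was -0.04, with 11 of 18 below 0, and the wild-type median -1.13. Rgs4 and Rgs2 accelerate GTP hydrolysis by G-protein alpha subunits. Rgs4 gave 1438 and 1353 in unstimulated kinase-dead cells, 1252 and 1248 at 1 h and 1392 and 1412 at 4 h, against 670 and 686, 569 and 689, and 232 and 242 in wild-type cells. The kinase-dead arrays spanned a narrow band, with 4 h and unstimulated signals overlapping, and the change was 0.01 ± 0.10 (SE; limma adjusted p = 0.987) where the wild-type change was -1.48. Rgs2 gave 124 and 120 at 4 h and 176 and 178 unstimulated in kinase-dead cells, a change of -0.51 ± 0.17 (SE; limma adjusted p = 0.18), against 40.8 and 48.0 at 4 h and 136 and 104 unstimulated in wild-type cells. The Rgs4 upstream window, at chr1:169747643-169747892 on the minus strand, is shown as that of an abundant member whose kinase-dead level stayed within a narrow band; it held an inverted CCAAT box 57 bases and a TATA box (TATAAA) 31 bases before the start site.
Rgs4: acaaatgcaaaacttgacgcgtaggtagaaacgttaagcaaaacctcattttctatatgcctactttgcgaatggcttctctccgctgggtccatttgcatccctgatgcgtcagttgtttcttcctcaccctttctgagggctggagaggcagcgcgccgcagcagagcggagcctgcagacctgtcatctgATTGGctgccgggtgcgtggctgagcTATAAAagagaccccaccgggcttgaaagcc

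Irs1, the adaptor of the insulin and IGF-1 receptors, gave 1171 and 1245 in unstimulated kinase-dead cells, 1287 and 1208 at 1 h and 1150 and 1176 at 4 h, against 1010 and 851, 1211 and 1189, and 392 and 284 in wild-type cells. Its kinase-dead change was -0.05 ± 0.13 (SE; limma adjusted p = 0.898), where the wild-type change was -1.45. The wild-type 4 h arrays were the lowest of the 12. Cpne2, a copine that binds phospholipid in the presence of calcium, gave 47.7 and 75.2 at 4 h and 23.1 and 31.7 unstimulated in kinase-dead cells, against 25 and 17.1 at 4 h and 58.5 and 88.9 unstimulated in wild-type cells. Its kinase-dead change of 0.95 ± 0.31 (SE; limma adjusted p = 0.168) was the highest among members, at low signals. Ripor2 had a kinase-dead change of 0.11 and a wild-type one of -1.52, and Arhgap20 had 0.38 and -1.12 (limma adjusted p in kinase-dead cells 0.874 and 0.636). Dixdc1 and Daam2, both Wnt pathway components, had kinase-dead changes of -0.24 and -0.40 (limma adjusted p = 0.718 and 0.368).

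**Figure D3:**
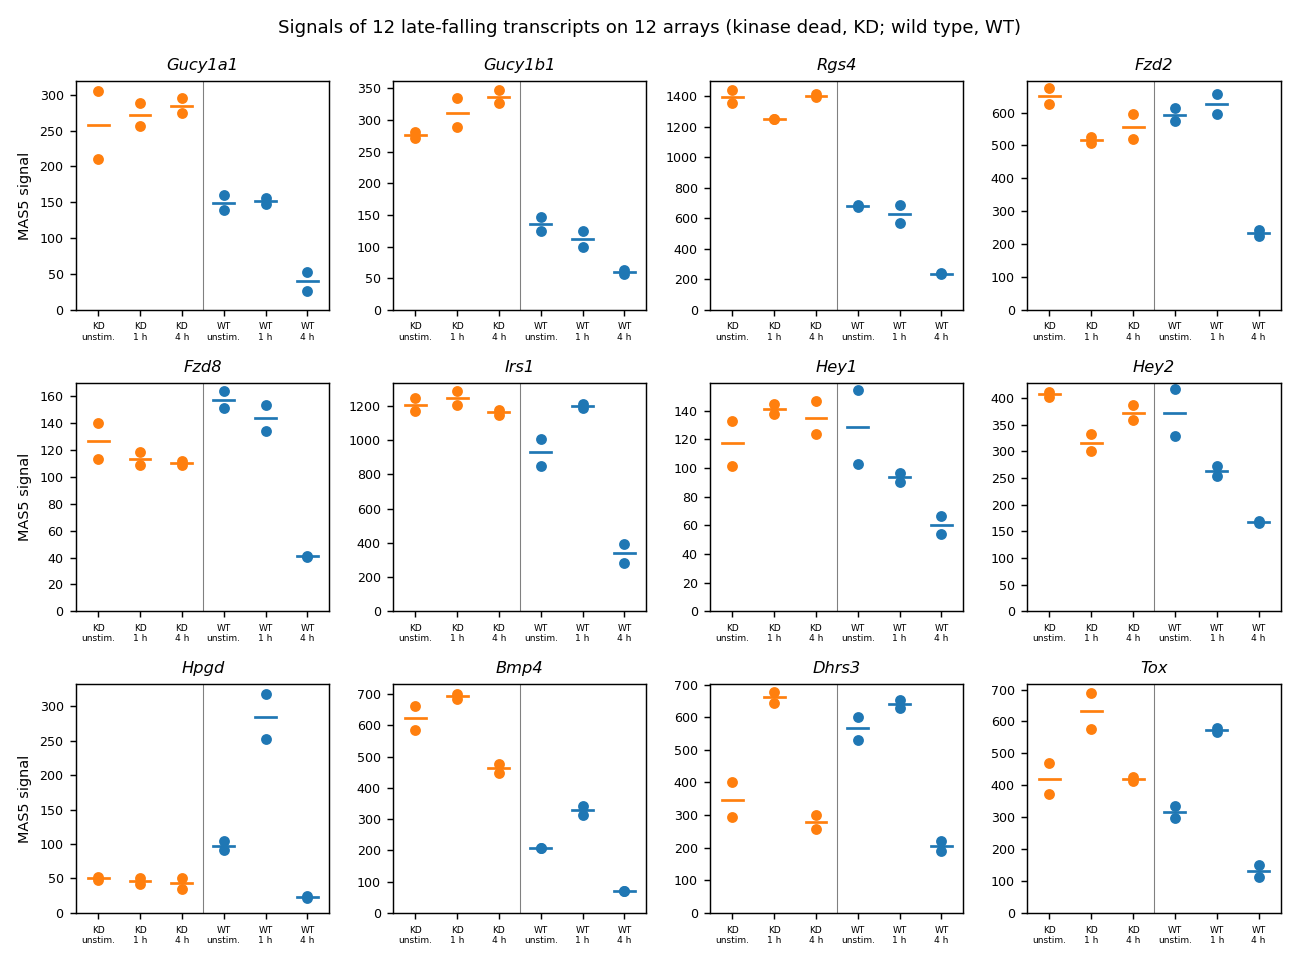
Signals of selected late-falling transcripts on each array, kinase-dead arrays left of wild-type arrays and times from unstimulated to 4 h, on a linear axis from 0 for each gene. Points are single arrays and short lines are group means of 2; Rgs4 and Irs1 keep to a narrow band in kinase-dead cells, while their wild-type 4 h arrays are the lowest.

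The 17 members in transcription and chromatin had a kinase-dead median of -0.06, with 10 of 17 below 0, and a wild-type median of -1.14. Hey1 and Hey2 are repressors switched on by Notch signalling. Hey2 gave 403 and 410 in unstimulated kinase-dead cells, 300 and 332 at 1 h and 386 and 359 at 4 h, against 329 and 416, 273 and 254, and 170 and 166 in wild-type cells. Hey1 gave 133 and 101, 138 and 144, and 147 and 123 in kinase-dead cells, against 154 and 103, 96.5 and 90.5, and 53.6 and 66.4 in wild-type cells. The kinase-dead 4 h change was -0.12 ± 0.13 for Hey2 and 0.20 ± 0.20 for Hey1 (SE; limma adjusted p = 0.739 and 0.729), while in wild-type cells both were lowest at 4 h. The Hey2 upstream window, at chr10:30842784-30843033 on the minus strand, is shown because it held the RBPJ letters, in the inverted form TTCCCA, 207 bases before the start site, along with CCAAT and GC boxes on both strands.
Hey2: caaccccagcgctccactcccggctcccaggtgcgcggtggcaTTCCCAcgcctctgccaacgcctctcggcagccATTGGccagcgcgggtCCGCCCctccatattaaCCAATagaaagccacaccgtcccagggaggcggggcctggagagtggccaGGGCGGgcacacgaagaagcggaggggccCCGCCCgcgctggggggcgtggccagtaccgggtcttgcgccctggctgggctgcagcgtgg

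Other developmental regulators in the set included Sox9, Tbx5, Mef2c and Pou3f3. Sox9, a cartilage and progenitor regulator, gave 440 and 361 in unstimulated kinase-dead cells, 256 and 336 at 1 h and 312 and 311 at 4 h, against 469 and 497, 423 and 456, and 198 and 206 in wild-type cells. Both stimulated times lay below the unstimulated arrays in kinase-dead cells, with a 4 h change of -0.35 ± 0.14 (SE; limma adjusted p = 0.264). Tbx5, a forelimb and heart regulator, gave 14.9 to 52.9 on the 6 kinase-dead arrays, against 145 to 178 on the wild-type unstimulated and 1 h arrays and 85.8 and 50.5 at 4 h, so the kinase-dead arrays were near or below the wild-type 4 h level before and after IL-1b. Mef2c, a muscle and vessel regulator, had a kinase-dead change of -0.16 (limma adjusted p = 0.79) and a wild-type one of -1.42. Other Mef2c probe sets with at least 50 in unstimulated wild-type cells gave kinase-dead changes of -0.40, -0.53 and -0.02. Their wild-type changes were -0.87, -0.97 and -0.99.

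Among the chromatin and cofactor genes, Jade1, a subunit of histone acetyltransferase complexes, had the highest wild-type unstimulated level of the set. It gave 1340 and 1313 in unstimulated kinase-dead cells, 1173 and 1148 at 1 h and 1096 and 1037 at 4 h, against 2160 and 1915, 1511 and 1531, and 835 and 904 in wild-type cells. On this probe set both genotypes gave lower signals at each later time. The kinase-dead 4 h change was -0.31 ± 0.09 (SE, limma adjusted p = 0.123) and the wild-type one -1.22. Other Jade1 probe sets with at least 50 in unstimulated wild-type cells gave kinase-dead changes of -0.04, 0.06 and -0.05. Their wild-type changes were -1.39, -1.56 and -0.95. The cofactor Sertad4 gave 1658 and 1569 at 4 h and 1361 and 1160 unstimulated in kinase-dead cells, a change of 0.36 (limma adjusted p = 0.14), against 499 and 575 at 4 h and 1356 and 1181 unstimulated in wild-type cells. The clock-controlled factor Dbp had a kinase-dead change of -0.16 (limma adjusted p = 0.79).

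The 16 metabolic and redox members had a kinase-dead median of -0.14, with 11 of 16 below 0, and a wild-type median of -1.07. Hpgd, which inactivates prostaglandins, gave 48.3 and 52.3 in unstimulated kinase-dead cells, 50 and 42.4 at 1 h and 50.7 and 35.1 at 4 h, against 91.9 and 104, 252 and 317, and 25.1 and 22.0 in wild-type cells. The kinase-dead changes were -0.11 at 1 h and -0.21 at 4 h (limma adjusted p = 0.875 and 0.733), with arrays between 35.1 and 52.3, while the wild-type signal was high at 1 h and low at 4 h. Acaca, the enzyme that makes malonyl-CoA for fatty acid synthesis, had a kinase-dead 4 h change of 0.45 (limma adjusted p = 0.463), with unstimulated signals of only 28.5 and 62.8. Plin2, a lipid-droplet coat protein, gave 385 and 384 at 4 h and 462 and 476 unstimulated in kinase-dead cells, against 166 and 214 at 4 h and 378 and 355 unstimulated in wild-type cells. The superoxide and hydrogen peroxide producer Nox4 had a kinase-dead change of 0.10 (limma adjusted p = 0.807) and a wild-type one of -0.96. Another Nox4 probe set gave -0.18 and -0.38.

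The 3 transport members were the glutamate transporter Slc1a3, the iron exporter Slc40a1 and the potassium channel Kcnj15. Slc1a3, also on the list of neural and radial glial markers, gave 62.5 and 66.8 at 4 h and 66.3 and 69.3 unstimulated in kinase-dead cells, against 53.5 and 36.5 at 4 h and 149 and 141 unstimulated in wild-type cells. Slc40a1 gave 193 and 179, 194 and 225, and 174 and 154 from unstimulated to 4 h in kinase-dead cells, against 84.2 and 89.9, 163 and 154, and 34.4 and 46.7 in wild-type cells, where its 1 h arrays were the highest. Kcnj15 was near the bottom of the scale on the kinase-dead arrays (7.70 to 25.9).

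Of 11 cytoskeleton and cilium members, 8 had a kinase-dead 4 h change below 0, with a median of -0.28, the lowest of the groups with more than 3 members. Their wild-type median was -0.98. Palmd, a palmdelphin of the paralemmin family, gave 144 and 66.9 in unstimulated kinase-dead cells, 265 and 192 at 1 h and 113 and 115 at 4 h, against 63.9 and 56.7, 120 and 115, and 8.30 and 23.7 in wild-type cells. The 1 h arrays were the highest in both genotypes, and the kinase-dead 4 h arrays lay between the unstimulated ones. Its kinase-dead change was 1.13 ± 0.31 at 1 h (SE; limma adjusted p = 0.0566), the highest of the members though not called, and 0.19 at 4 h (limma adjusted p = 0.848), where the wild-type 4 h change was -1.58. Lmod1, an actin nucleator of smooth muscle, gave 128 and 196 at 4 h and 229 and 270 unstimulated in kinase-dead cells, a change of -0.62 ± 0.20 (SE; limma adjusted p = 0.163), against 112 and 75.3 at 4 h and 191 and 189 unstimulated in wild-type cells. Fmn1, a formin, and Wasf1, a WAVE complex subunit, had kinase-dead changes of -0.33 and -0.03 (limma adjusted p = 0.295 and 0.928) and wild-type changes of -0.92 and -0.95. The dynein-2 subunit Wdr60 had a wild-type change of -1.79, but from signals of 53.8 and 66.1.

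The 6 cell cycle and DNA repair members had a kinase-dead median of -0.25, with 5 of 6 below 0, and a wild-type median of -1.08. Cdc25b, a phosphatase that activates cyclin-dependent kinases, gave 131 and 141 at 4 h and 187 and 193 unstimulated in kinase-dead cells, against 101 and 80.4 at 4 h and 198 and 160 unstimulated in wild-type cells. Its kinase-dead change was -0.46 ± 0.16 (SE; limma adjusted p = 0.209). Among 9 ubiquitin ligase and membrane traffic members the kinase-dead median was -0.10 and the wild-type median -1.02. Trim62, a RING-type ubiquitin ligase with the lowest wild-type change of the set, gave 70.5 and 80.0 at 4 h and 69.6 and 94.8 unstimulated in kinase-dead cells, against 16.9 and 10.6 at 4 h and 73.8 and 63.3 unstimulated in wild-type cells. Pdzrn3, another ligase, was far more abundant, with 2504 and 2593 at 4 h and 2746 and 2787 unstimulated in kinase-dead cells, against 1010 and 968 at 4 h and 2055 and 1793 unstimulated in wild-type cells. The kinase-dead changes were -0.10 for Trim62 and -0.12 for Pdzrn3 (limma adjusted p = 0.895 and 0.578).

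At 1 h, several members differed from the unstimulated level in kinase-dead cells, and most of the called ones were higher. Culture time differed in this comparison too, at 1 h against 4 h, and cannot be told apart from IL-1b. Of 109 members, 7 were called, where 3.27% of all genes were. A rise was called in 6 (5.5%, against 1.55% of all genes called higher) and a fall in 1 (0.917%, against 1.72% called lower). The rule had removed 64 genes with a wild-type 1 h change of -0.5 or less. The 1 h changes of the genotypes correlated over all genes (Pearson r = 0.34), so the balance of rises and falls is not free of that choice. The member median was 0.01 (0.05 without kinase-dead 1 h replicate 2, or 0.03 if unstimulated replicate 1 was dropped), and 53 (48.6%) were below 0, against 52% of all genes. The 6 were Dhrs3, Tmem86a, Sertad4, Nhsl1, Kat6b and Tox. Dhrs3, which reduces retinaldehyde to retinol, gave 644 and 677 at 1 h and 400 and 294 unstimulated in kinase-dead cells, against 629 and 653 at 1 h and 532 and 602 unstimulated in wild-type cells. The 1 h and unstimulated arrays did not overlap in either genotype, and the kinase-dead rise was 0.93 ± 0.14 (SE; limma adjusted p = 0.00164), where the wild-type change was 0.18. The lysoplasmalogenase Tmem86a rose by 0.62 to 658 and 653, against 443 and 406 unstimulated (limma adjusted p = 0.0135). Sertad4 rose by 0.60 to 1860 and 1954, against 1361 and 1160 unstimulated (limma adjusted p = 0.00547).

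Nhsl1, a regulator of cell migration, rose by 0.67 in kinase-dead cells at 1 h (limma adjusted p = 0.0262), and its wild-type 1 h change was 0.69. The histone acetyltransferase Kat6b rose by 0.49 (limma adjusted p = 0.0331), with a wild-type change of 0.45. Tox rose by 0.58 (limma adjusted p = 0.0407), with 576 and 688 at 1 h and 469 and 374 unstimulated in kinase-dead cells, against 578 and 566 at 1 h and 296 and 334 unstimulated in wild-type cells. The 1 member that fell was Smarcb1, a core subunit of the SWI/SNF chromatin remodelling complex, with 262 and 226 at 1 h and 573 and 558 unstimulated in kinase-dead cells (-1.19 ± 0.29 SE, limma adjusted p = 0.0341), against 269 and 366 at 1 h and 390 and 142 unstimulated in wild-type cells. The wild-type unstimulated arrays of Smarcb1 disagree widely, and its probe set is of a type that can also bind other transcripts. The count of rises dropped to 2 without kinase-dead unstimulated replicate 2 or kinase-dead 1 h replicate 1, and to 1 without kinase-dead 1 h replicate 2, and was 10 without wild-type unstimulated replicate 1 or 2. Without a trend of variance on signal in the fit no rise was called in limma (0). Over all genes the share called higher moved alike, to 0.538%, 0.554% and 0.425% without those 3 kinase-dead arrays, 2.5% and 2.48% without those wild-type ones, and 0.297% without the trend. All genes include ones dimmer than the rule admits. With a signal of at least 100 required on 2 arrays, 8 of 88 members and 3% of all genes tested were called higher. The Smarcb1 call was lost without any one of the 6 kinase-dead arrays. The actin ratio given above separates the unstimulated kinase-dead arrays from the 1 h ones as well.

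**Figure D4:**
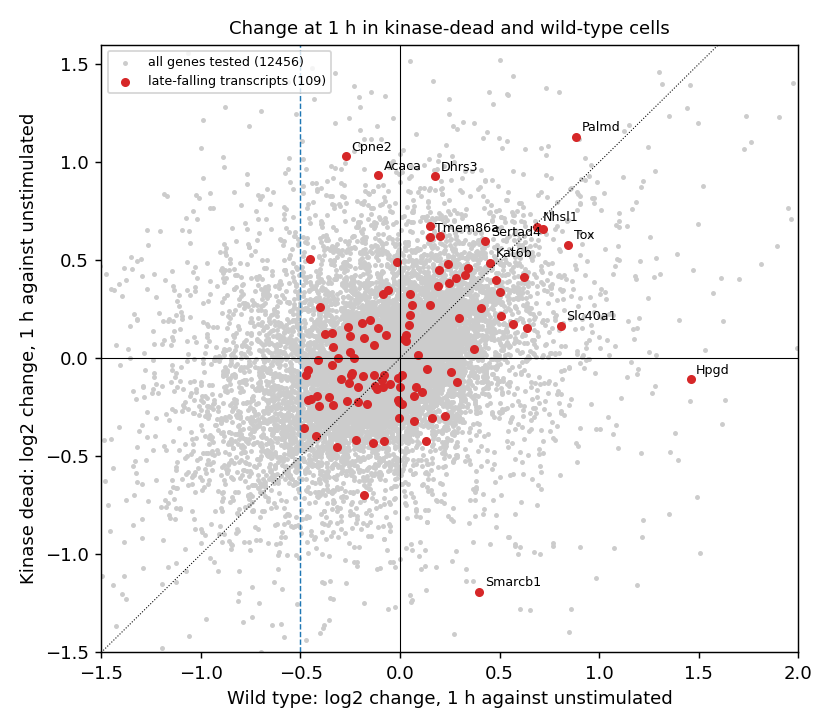
Log2 change at 1 h against unstimulated in kinase-dead cells (vertical) and wild-type cells (horizontal) for all 12456 genes (grey) and the 109 late-falling transcripts (red). The members begin at -0.48 on the horizontal axis because of the rule; Dhrs3, at 0.93 in kinase-dead cells, is the most firmly called of the 6 that rose, and Smarcb1, at -1.19, is the 1 that fell.

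Set against 1 h in place of the unstimulated cells, more members were called lower at 4 h in kinase-dead cells. The share of all genes called lower was larger as well, at 1.81% against 0.177%. The number of members below 0 was similar, at 77 against 74. All 10 members called, where 4.08% of all genes were, fell (9.17% of the members, against 1.81% of all genes called lower) and 0 rose in limma (against 2.26% called higher, with 5 members higher at an unadjusted p under 0.05 and 1 called when only the kinase-dead arrays were fitted). The member median was -0.10 (-0.20 without kinase-dead 4 h replicate 1), and 77 of 109 (70.6%) were below 0, against 49% of all genes. The 10 were Dhrs3, Gadd45g, Tmem86a, Bmp4, Nhsl1, Mllt3, Lmod1, Acot11, Tox and Fry. The changes of this comparison and of the 1 h comparison share the 1 h arrays. Culture time differed here too, at 4 h against 1 h, and cannot be told apart from time in IL-1b.

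Dhrs3 gave 258 and 301 at 4 h in kinase-dead cells, against 191 and 220 at 4 h in wild-type cells, and it fell by 1.22 ± 0.14 from 1 h in kinase-dead cells (SE; limma adjusted p = 7.98e-05). Gadd45g, a stress-response gene that acts on the cell cycle and on MAP kinase signalling, gave 380 and 455 in unstimulated kinase-dead cells, 548 and 620 at 1 h and 285 and 316 at 4 h, against 444 and 464, 517 and 559, and 163 and 207 in wild-type cells. It fell by 0.94 from 1 h in kinase-dead cells (limma adjusted p = 0.000709), and its 4 h arrays were also below the unstimulated ones, with a change of -0.46 (limma adjusted p = 0.138). Tmem86a fell by 0.67 and Nhsl1 by 0.73 (limma adjusted p = 0.00691 and 0.0134), and both ended near their unstimulated levels, with changes from unstimulated of -0.06 and -0.06. The elongation cofactor Mllt3 fell by 0.71 and the acyl-CoA thioesterase Acot11 by 0.65 (limma adjusted p = 0.0228 and 0.0277).

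Lmod1 fell by 0.83, Tox by 0.58 and Fry, a scaffold for NDR kinases, by 0.58 (limma adjusted p = 0.0257, 0.0372 and 0.0442). For Tox the kinase-dead 4 h change from unstimulated was 0.00 ± 0.15 (SE). Of the 10, Dhrs3, Nhsl1, Tmem86a and Tox had also risen at 1 h. The count of 10 dropped to 2 without kinase-dead 1 h replicate 1 or 2, to 3 without kinase-dead 4 h replicate 1 and to 4 without kinase-dead 4 h replicate 2; Dhrs3 and Gadd45g were called each time. It was 3 without the variance trend. The share of all genes called lower also dropped, to 0.385% and 0.474% without the 1 h replicates, 0.578% and 0.369% without the 4 h replicates, and 0.233% without the trend. With a stricter wild-type limit of -1.2, which leaves 31 members, 6 of the 31 were called.

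Lists of genes from the pathways of the members, with the members included, held few calls in the kinase-dead 4 h comparison. Only 0.618% of all genes were called there, so nothing is read from the low counts. Of 16 Notch pathway genes tested 0 were called, with a median of 0.13, and of 31 Wnt pathway genes 0, with a median of 0.06. Of 28 TGF-beta and BMP genes 0 were called at 4 h. Among 23 FoxO target and quiescence genes, which include Irs1, 1 rose at 4 h, the growth arrest gene Gadd45a (0.51, limma adjusted p = 0.0275). The lists of 18 circadian clock genes, 24 G-protein-coupled receptors and 42 homeobox, forkhead, Sox and T-box genes held 0 calls at 4 h. At 1 h, where 1.55% of all genes were called higher and 1.72% lower, 4 TGF-beta and BMP genes rose (Tgif1, Id1, Id2 and the co-receptor Tgfbr3) and 1 fell. In the FoxO list 3 rose and 3 fell, among the G-protein-coupled receptors 3 rose and 1 fell, 1 clock gene rose, 1 Wnt gene fell, and the Notch and the homeobox, forkhead, Sox and T-box lists held 0 calls in limma. Of the lists for other cell types, the neural one alone held a member, Slc1a3.

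Other probe sets of the same genes, measured on the same arrays, are given as a description and not as a check. Of the members, 70 have at least 1 other probe set, 139 in all, and 37 of these, for 21 genes, gave at least 50 in unstimulated wild-type cells. At 4 h in kinase-dead cells 25 of the 37 were below 0 and 0 were at -0.9 or less, with a range of -0.60 to 0.43. In wild-type cells all 37 were below 0 at 4 h, 15 of them at -0.9 or less, with a range of -1.58 to -0.18. They measure the same RNA that chose the members, were kept for their level in unstimulated wild-type cells, and entered the choice of the member probe set. Among the members' own probe sets, 25 are of types that may match several transcripts.

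An upstream window was on hand for 90 of the 109 members and 10024 of the tested genes. The members' windows resembled the rest in base composition, with a median of 61% G and C against 60% for all. The CCAAT box was present, on either strand, in 50% of the member windows and 36.0% of all. The shares for other motifs were 56.7% and 58.7% for the GC box, 22.2% and 20.4% for TGGGAA, 10% and 8.41% for the E-box CACGTG, 8.89% and 6.80% for TATAAA, and 7.78% and 8.59% for the NF-kB consensus. The AP-1 letters TGANTCA occurred in 1.11% of member windows and 4.27% of all. The members with the NF-kB letters were Ripor2, Irs1, Rusc2, Mthfd1, Kat6b, Zfyve19 and Plin2. The members lay on 20 chromosomes with at most 10 on any one, and the only adjacent pairs were Gucy1a1 with Gucy1b1 and Pcdh18 with Pabpc4l.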

How the data were processed

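RNA of 12 samples was measured on 1-colour Affymetrix Mouse Genome 430 2.0 arrays. The deposited values are MAS5 signal intensities, per the submitters' processing notes; its version and settings were not given. Total RNA was column-purified and amplified by the NuGEN Ovation method, per the labels. The mean of wild-type unstimulated replicate 1 was 150 after trimming 2% from each end, a value computed for that array alone. No further normalization was applied. Of 45101 probe sets, 34945 carry 1 gene symbol in the platform annotation and 932 carry several; only the first were named. A probe set entered if its signal reached 25.5, the median of all values, on 2 arrays, which left 12456 genes.

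Signals were analysed as log2(signal + 8); fold changes of low signals are understated on this scale. limma 3.58.1 in R 4.3.3 fitted 6 group means to all 12 arrays, with eBayes, a variance trend and Benjamini-Hochberg adjustment over all genes; an adjusted p under 0.05 is called. In simulated data for the kinase-dead 4 h comparison (12456 genes), the fit recovered 66% of genes with a log2 change of 1 and 89% of those with 2. Replicates were the titles' numbers. Genes were named by a rule: the 12 lowest wild-type changes, the 5 highest kinase-dead changes, members called at 1 h, members of 19 pathway and marker lists, those nearest the limits, and those with the highest and lowest signals; others were named for their role after their values were seen. The members and lists were chosen with earlier results of these data known. Alternatives covered the pseudocount, filter, scaling, probe-set choice, variance trend, arrays fitted, replicate block and leaving out each array. Python 3.11.15 with matplotlib 3.10.9 drew the figures.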

Additional observations from a re-analysis of the deposited data

Results flagged for a closer look

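For some members every pair of arrays moved one way in kinase-dead cells and every pair moved the other way in wild-type cells. None of these differences was tested, because the wild-type arrays had chosen the members, and in wild-type cells the 4 h direction was set by that choice. Both kinase-dead 4 h arrays lay above both unstimulated ones in 8.26% of the members, against 22.5% of all genes. At 4 h, the kinase-dead log2 changes of these members, all above 0, were 0.95 for Cpne2, 0.46 for Ranbp6, 0.36 for Sertad4, 0.29 for Pabpc4l, 0.27 for Gucy1b1, 0.27 for Pcdh18, 0.25 for Nap1l3, 0.11 for 2700049A03Rik and 0.10 for Nox4. None was called, with limma adjusted p from 0.14 (Sertad4) to 0.862 (2700049A03Rik). Another probe set of Nox4 went the other way in kinase-dead cells, at -0.18. Those of Pabpc4l and Pcdh18 gave 0.19 and 0.32. At 1 h, kinase-dead arrays were higher and wild-type arrays lower for Acaca (0.93), Ranbp6 (0.51), Tspyl5 (0.35), Hey1 (0.26) and Gucy1b1 (0.16), and the reverse held for Pdxp (-0.42). None of these was called in kinase-dead cells at 1 h, with limma adjusted p from 0.0584 (Acaca) to 0.662 (Gucy1b1). The share of all genes with such a 1 h pattern was not counted. Gucy1b1 and Ranbp6 appear at both times.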

How the results depend on the processing

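Between 0 and 3 members were called lower at 4 h in kinase-dead cells when 1 array was left out, and 0 were called higher each time; with only the 6 kinase-dead arrays fitted, a choice that lowers the residual degrees of freedom, 5 were lower and 1 higher. At 1 h the count called higher was 0 without a variance trend, 10 with the kinase-dead arrays alone, and 1 to 10 with 1 array left out, and the 1 member called lower was lost (0) without the low-signal filter, with the mean of a gene's probe sets, without a variance trend, with a wild-type limit of -1.2 (31 members), and over a range of 0 to 1 with 1 array left out. For 4 h against 1 h the count of 10 lower was 3 without a variance trend, 6 of 31 with the limit of -1.2 and 2 to 13 with 1 array left out, and 1 was higher with the kinase-dead arrays alone. Shares of all genes called moved in the same direction: without a variance trend 0.297% were higher at 1 h and 0.233% lower for 4 h against 1 h, and with the kinase-dead arrays alone 2.38% and 3.67%. As to the rule itself, 53 of the 109 members also met the limits with a pseudocount of 32, 71 with median centring, 70 with the mean of a gene's probe sets, and 81 to 104 with 1 wild-type array left out; these counts were added after the data had been seen. Median centring moved the wild-type 4 h median of all genes to -0.00 and that of the members to -0.97. Beyond the constructions named, the cause was not tested. With the replicate number as a block, 0 members were called at 4 h, 7 higher and 1 lower at 1 h, and 9 lower for 4 h against 1 h; the deviations of same-numbered arrays correlated between -0.05 and 0.10, so the numbers were not taken to pair the arrays. Signals near background, such as those of Kcnj15 and Tbx5 in kinase-dead cells, limit what can be read from small changes.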
